A study of Rattus norvegicus with 6 samples.

Results

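The genes described here are 35 rat genes of the extracellular matrix: collagens, the enzymes that crosslink and cleave them, matrix glycoproteins and proteoglycans, transforming growth factor beta (TGF-beta) genes, and 2 genes of contractile and perivascular cells. They were listed by function, and their probes were found through the RefSeq accession that the array files give for each probe. Of the 35 genes, 29 had at least 1 such probe, 50 probes in all, out of 15284 genes with a matched symbol. Col4a2, Col5a2, Col6a1, Col6a3, Col15a1 and Lox had no matched probe and were not analysed here. Postn and Lum had a probe too dim to test, so 27 genes entered the comparison, each well above background on all 6 arrays.

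Renal cortex RNA from 6 male rats of the Crl:CD(SD) Sprague-Dawley stock was labelled with Cy3 and hybridised to one-colour Agilent oligonucleotide arrays, 1 rat per array. The rats were 5 weeks old when bought and were kept on a basal diet. Over 4 weeks, the 3 controls were given corn oil as vehicle and the other 3 rats o-nitroanisole at 400 mg/kg/day, which asks how this dose alters transcripts of the kidney cortex. o-Nitroanisole, or 2-methoxynitrobenzene, is a nitroaromatic dye intermediate known to cause tumours of the rat urinary bladder. The route of dosing is not given in the sources used here, and both groups are whole tissue with no sorted cells.

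The interstitial matrix of the kidney is built mainly by fibroblasts and perivascular cells around the tubules and vessels. Fibrillar collagens form its fibres, lysyl oxidases crosslink them, and matrix metalloproteinases, held in check by tissue inhibitors (TIMPs), cleave them. Type IV collagen instead forms the sheet-like basement membranes under tubules, vessels and the glomerular filter. TGF-beta is the best known inducer of matrix genes, and a rise of fibrillar collagens is the usual transcript sign of renal fibrosis.

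The level of a gene is given as a relative signal, the processed intensity of its brightest probe divided by the 75th percentile of that array, so a value of 1 lies at that percentile. Differences are on the log2 scale, o-nitroanisole minus corn oil, with the standard error (SE) of limma's moderated fit over 32428 features and 3 arrays per group. Levels of different genes are not compared, since probes differ in brightness. Slide 1 held the 3 corn oil arrays and slide 2 the 3 o-nitroanisole arrays, and the recorded scan date split the arrays in the same way. Slide, scan and treatment therefore cannot be told apart in any difference below. The share of probes well above background was 66.4% to 71.5% per array, and the number of arrays limits the precision. All 10 listed markers of the proximal tubule, the main segment of the cortex, were detected and tested, as were all 8 of podocytes. In whole tissue, fewer cells of a type and less RNA per cell cannot be told apart.

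Promoter sequences are shown for 4 of these genes, because Col1a2, Col5a1 and Tgfbi lay lower on every o-nitroanisole array while Col4a1 did not. The RefSeq promoter table (build GRCr8) held 23 of the 35 genes, and Col3a1, Loxl2, Mmp2, Mmp14 and Bgn were not among them. Each line gives the 250 bases before the annotated start of the gene, 5′ to 3′ on its own strand. Capitals mark matches, on either strand, to 4 searched motifs: CCAAT, the CCAAT box; GGGCGG, the GC box; TATAAA, the TATA box; and CAGACA, a core of the CAGA element that SMAD proteins bind.
Col1a2, chr4:33518307-33518556, plus strand: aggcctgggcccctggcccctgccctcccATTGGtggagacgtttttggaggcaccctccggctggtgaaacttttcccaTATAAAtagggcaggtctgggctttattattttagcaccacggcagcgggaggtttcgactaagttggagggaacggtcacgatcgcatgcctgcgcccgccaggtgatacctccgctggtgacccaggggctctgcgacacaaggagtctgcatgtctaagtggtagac
Col5a1, chr3:31606630-31606879, plus strand: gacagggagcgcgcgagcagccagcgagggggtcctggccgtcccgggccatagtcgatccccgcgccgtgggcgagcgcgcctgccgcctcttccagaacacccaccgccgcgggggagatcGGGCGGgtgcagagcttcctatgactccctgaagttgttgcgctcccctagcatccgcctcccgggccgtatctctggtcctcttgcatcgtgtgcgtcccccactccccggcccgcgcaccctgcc
Tgfbi, chr17:7990114-7990363, minus strand: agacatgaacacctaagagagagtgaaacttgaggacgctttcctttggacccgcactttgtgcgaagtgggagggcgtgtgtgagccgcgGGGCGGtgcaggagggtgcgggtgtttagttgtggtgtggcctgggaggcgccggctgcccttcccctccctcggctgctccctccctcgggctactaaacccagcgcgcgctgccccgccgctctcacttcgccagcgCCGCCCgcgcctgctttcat
Col4a1, chr16:84885347-84885596, plus strand: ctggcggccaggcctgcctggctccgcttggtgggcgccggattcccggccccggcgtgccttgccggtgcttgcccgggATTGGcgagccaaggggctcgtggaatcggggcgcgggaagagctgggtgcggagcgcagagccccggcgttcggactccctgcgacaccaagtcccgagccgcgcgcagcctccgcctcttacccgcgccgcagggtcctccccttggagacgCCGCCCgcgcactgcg

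The Col1a2 window held 1 CCAAT box, as ATTGG on the opposite strand, and 1 TATA box, the Col5a1 window 1 GC box and the Tgfbi window 2. In the Col1a2 window TATAAA began at position -170 from the annotated start. The Col4a1 window held 1 CCAAT box and 1 GC box. Col4a1 and Col4a2 lie head to head, with annotated starts 77 bases apart, and their windows share 76 identical bases. Of all 33469 promoters of this length, 34.0% held a CCAAT box, 30.5% a GC box, 12.9% a TATA box and 17.2% CAGACA. Among the 23 promoters of the matrix genes the shares were 21.7%, 43.5%, 17.4% and 30.4%. CAGACA was in none of the 4 windows printed, and a match or its absence is only a description of the letters.

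Matrix transcripts lay lower rather than higher after o-nitroanisole. Of the 27 tested genes, 21 had a difference below 0, against 44.0% of all features, and the median difference was -0.19, against 0.03 over all features. With limma's default moderation and Benjamini-Hochberg adjustment 0 of the 27 passed 0.05, as did 0% of all features. At an unadjusted p under 0.05, 8 genes were lower (7.12% of all features were) and 0 higher (11.8% of all features were): Col1a2, Col3a1, Col5a1, Loxl2, Mmp2, Mmp14, Bgn and Tgfbi. The same 8 genes had all o-nitroanisole arrays below all corn oil arrays, where 9.56% of features did, and Pdgfrb had all above, where 17.6% did. The list was drawn up with earlier results of these data known, so these counts describe it and do not test it. Under quantile scaling 9 genes were lower at that p (7.95% of all features) and 0 higher (8.79% of all features).

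When limma was run with a trend on the variance and robust moderation (the trend and robust fit), it called 4 of the 27 genes at an adjusted p of 0.05, all lower, where 0.373% of all features were called lower and 1.24% higher. These were Loxl2 (adjusted p = 0.0312 in that fit), Col1a2 (0.0328), Mmp14 (0.0402) and Col3a1 (0.0444). Over the alternative settings their adjusted p-values ranged from 0.0312 to 0.261 for Loxl2, 0.0328 to 0.276 for Col1a2, 0.0402 to 0.276 for Mmp14 and 0.0444 to 0.300 for Col3a1. Leaving out any 1 of the 6 arrays ended all 4 calls in that fit, which then had 1 array fewer. The calls over all features fell as well, from 522 to between 0 and 67, so this loss is not particular to the matrix genes.

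**Figure D1:**
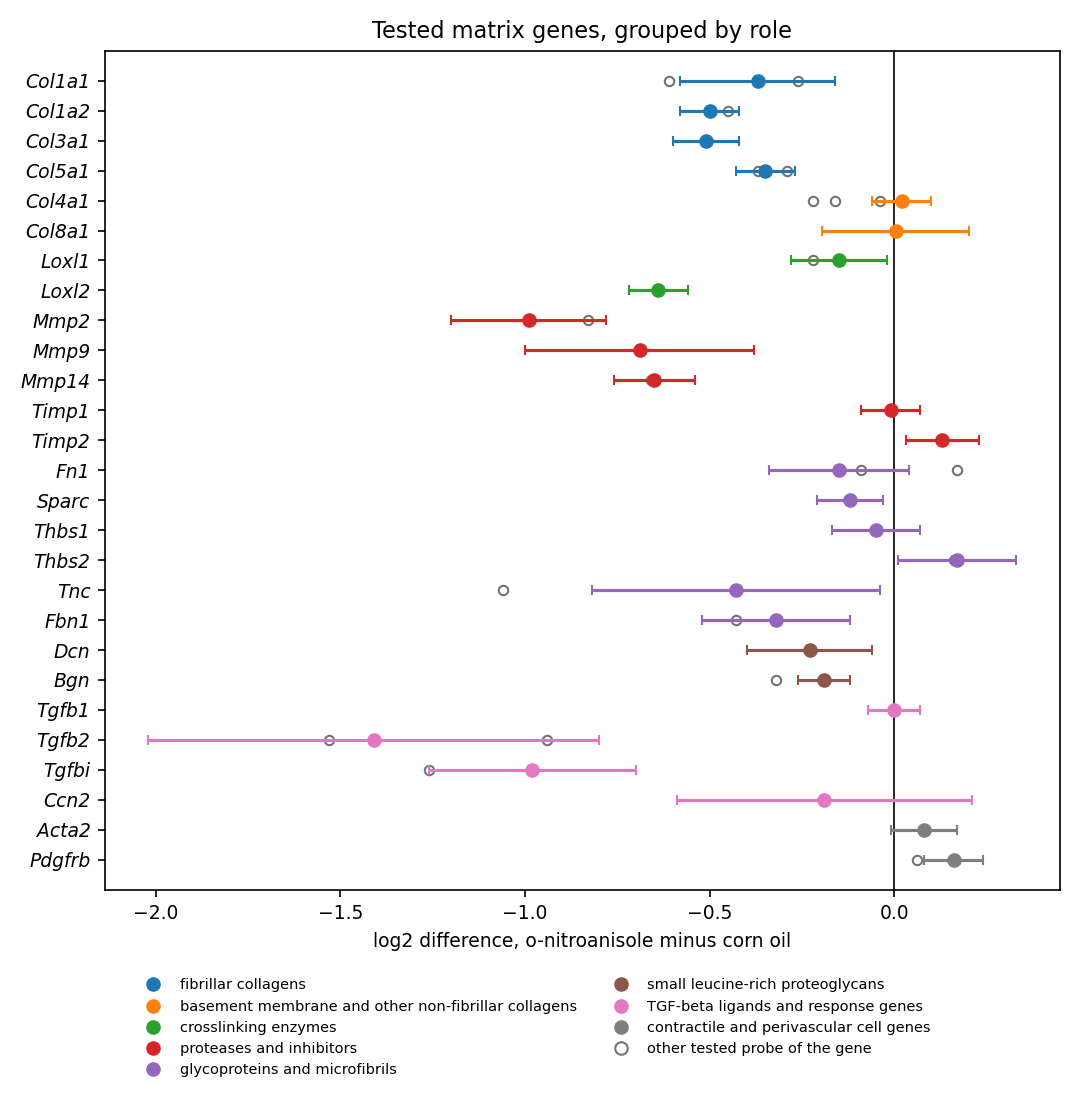
Log2 difference between o-nitroanisole and corn oil (x axis) for the 27 tested matrix genes (y axis), 3 arrays per group. Filled points are the brightest probe of each gene with bars of 1 SE, coloured by role, and open circles are other tested probes of the same gene; fibrillar collagens, Loxl2, Mmp2, Mmp14 and Tgfbi lie left of 0, while Col4a1, Timp1, Tgfb1 and Acta2 lie at or near it.

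The fibrillar collagens lay lower in all 4 members measured, by a median of -0.44. Col1a2, a chain of type I collagen, gave relative signals of 13.4, 14.6 and 15.4 in the corn oil rats and 9.65, 10.4 and 10.5 in the o-nitroanisole rats. The groups did not overlap, and the treated rats lay 29.4% below the controls, a log2 difference of -0.50 ± 0.08 (adjusted p = 0.0961 with defaults). Its second probe gave -0.45.

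Col3a1, the single chain of type III collagen, which forms fine reticular fibres, gave 4.02, 3.82 and 4.35 in corn oil against 2.79, 2.65 and 3.13. Again each treated rat lay below each control, by -0.51 ± 0.09 (adjusted p = 0.108 with defaults), or 29.9%. Col5a1, of the type V collagen that starts fibril assembly, gave 0.690, 0.725 and 0.779 against 0.617, 0.541 and 0.568. The groups were apart but closer than for Col1a2, with a difference of -0.35 ± 0.08 (adjusted p = 0.138) and 3 probes between -0.37 and -0.29.

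Col1a1, the other chain of type I collagen, varied more between rats. Its brightest probe gave 2.18, 3.51 and 3.25 in corn oil and 1.93, 2.43 and 2.46 in o-nitroanisole. Corn oil replicate 1 lay below 2 treated rats, and the difference of -0.37 ± 0.21 did not pass (adjusted p = 0.397); it was -0.58 with that array left out and -0.24 with corn oil replicate 2 left out. Its 3 probes gave -0.61, -0.37 and -0.26, all below 0.

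**Figure D2:**
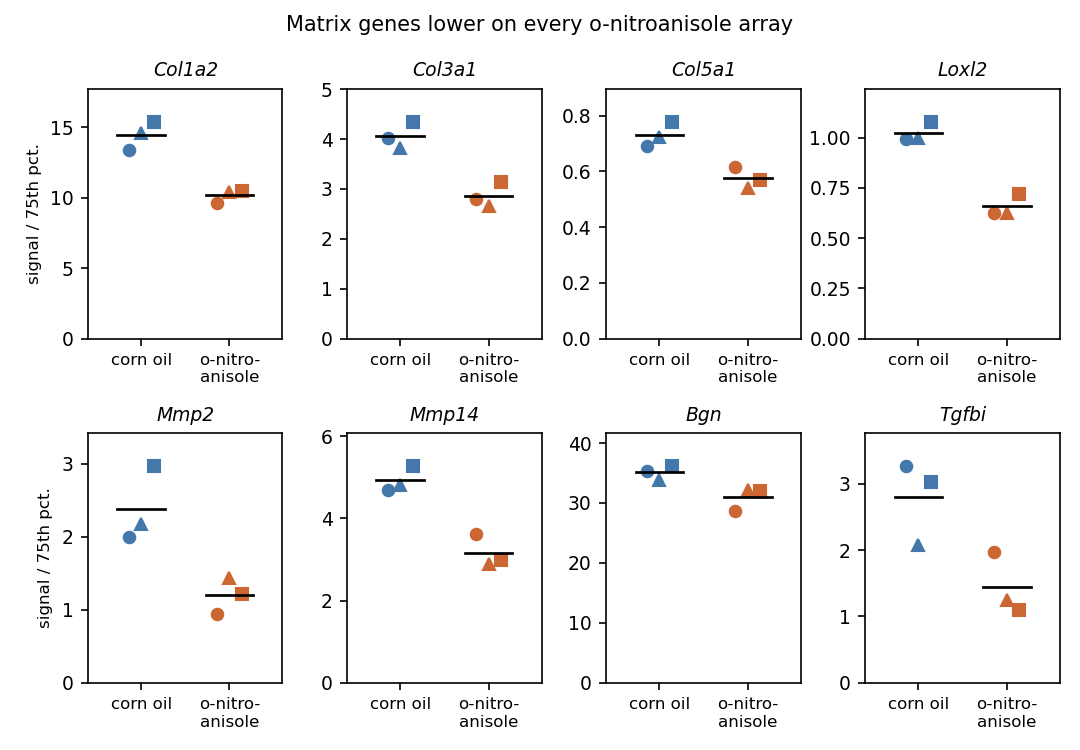
Relative signal (processed intensity over the array's 75th percentile, y axis from 0) of the 8 matrix genes whose o-nitroanisole arrays all lay below all corn oil arrays. Each symbol is 1 rat (circle, triangle and square for replicates 1, 2 and 3 of each group, whose numbers do not pair rats) and bars are group means. The group means differ most relative to the level for Mmp2 and Tgfbi and least for Bgn. The nearest Tgfbi arrays of corn oil and o-nitroanisole lie close together.

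The basement membrane collagen Col4a1 did not separate the groups. It gave 20.1, 22.3 and 20.8 in corn oil and 20.1, 21.6 and 22.6 in o-nitroanisole. The groups overlapped fully, with a difference of 0.02 ± 0.08 and a 95% interval from -0.16 to 0.21. Its 3 other probes gave -0.22 (unadjusted p = 0.0360 by limma, before adjustment over all features), -0.16 and -0.04, and the difference turned to -0.07 under quantile scaling and -0.08 under normexp. Col8a1, a short-chain network collagen of vessel walls, was dim, between 0.0368 and 0.0571 on all arrays, with a difference of 0.003 ± 0.20 that turned just below 0 under quantile scaling.

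Within each array, the log2 ratio of Col1a2 to Col4a1 was lower after o-nitroanisole by -0.52 ± 0.06 (SE of the difference in group means). Relative to the corn oil mean it lay at -0.04, -0.07 and 0.11 in the controls and at -0.51, -0.51 and -0.55 in the treated rats. The ratio of Col3a1 to Col4a1 differed by -0.53 ± 0.11. Both ratios separated the groups. These and 4 further ratios given below, 6 pairs in all, were chosen after the values were seen; the two-sided exact permutation p was 0.10 for each, before and after Benjamini-Hochberg adjustment, the smallest that 3 against 3 arrays allow.

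The crosslinking enzymes differed between members. Loxl2, a lysyl oxidase-like enzyme that also acts on type IV collagen, gave 0.991, 1.00 and 1.08 in corn oil and 0.626, 0.627 and 0.719 in o-nitroanisole. The groups were clearly apart, with a difference of -0.64 ± 0.08, or 36.0% lower (adjusted p = 0.0820 with defaults), which rests on 1 probe. Loxl1, which crosslinks elastin, gave 4.10, 4.95 and 5.82 against 4.48, 4.47 and 4.34. The treated rats were close together inside the wide range of the controls, and the difference of -0.15 ± 0.13 did not pass (adjusted p = 0.585). Leaving out corn oil replicate 1 gave -0.28, and leaving out replicate 3 gave -0.02. The Loxl2 to Loxl1 ratio differed by -0.50 ± 0.14.

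Of the 3 proteases and 2 inhibitors measured, Mmp2 and Mmp14 lay lower with the groups apart, while Mmp9, Timp1 and Timp2 overlapped. Mmp2, gelatinase A, gave 1.99, 2.18 and 2.97 in corn oil and 0.942, 1.44 and 1.22 in o-nitroanisole. No treated rat reached the lowest control, and the level was 49.7% lower, a difference of -0.99 ± 0.21 (adjusted p = 0.127 with defaults); the second probe gave -0.83. Mmp14, the membrane-bound protease that activates the Mmp2 proenzyme, gave 4.69, 4.81 and 5.28 against 3.61, 2.88 and 2.99.

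The Mmp14 groups were apart, with a difference of -0.65 ± 0.11 (adjusted p = 0.10 with defaults) and a second probe at -0.66. Mmp9, gelatinase B, was dim at 0.0929, 0.198 and 0.141 in corn oil and 0.0794, 0.0719 and 0.109 in o-nitroanisole. Its groups overlapped, since corn oil replicate 1 lay below o-nitroanisole replicate 3. The difference of -0.69 ± 0.31 did not pass (adjusted p = 0.305), and it ranged from -0.97 to -0.42 on leaving out corn oil replicate 1 or 2.

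Timp1, a broad inhibitor induced in injured kidney, gave 2.03, 2.04 and 2.03 in corn oil and 1.97, 1.86 and 2.23 in o-nitroanisole. The treated rats straddled the controls, with a difference of -0.01 ± 0.08 and a 95% interval from -0.21 to 0.19; it was 0.12 under normexp and 0.01 under median scaling. Timp2, which takes part in the activation of Mmp2 by Mmp14, gave 12.4, 14.5 and 13.9 against 13.3, 15.9 and 15.6. The groups overlapped, with a difference of 0.13 ± 0.10 (95% interval -0.12 to 0.38). Within each array, the Mmp2 to Timp2 ratio differed by -1.12 ± 0.19 and the Mmp14 to Timp2 ratio by -0.78 ± 0.19, each with the groups apart.

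At their brightest probes, the glycoproteins showed no separation of the groups in any of the 6 members tested. Sparc, a collagen-binding protein, gave 42.6, 48.7 and 45.5 against 38.6, 41.6 and 45.6, a difference of -0.12 ± 0.09. Fn1, fibronectin, gave 2.49, 2.38 and 2.40 against 2.30, 2.75 and 1.66, so that the controls were close together and o-nitroanisole replicate 3 was low. Its difference was -0.15 ± 0.19, and 0.05 without that array; its 3 probes gave -0.15, -0.09 and 0.17.

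Fbn1, the fibrillin of microfibrils, gave 2.64, 1.79 and 2.77 against 1.89, 1.64 and 2.16. Its groups overlapped through corn oil replicate 2, and the difference of -0.32 ± 0.20 was -0.52 without that array. The second, dimmer probe gave -0.43 (unadjusted p = 0.00550 by limma, before adjustment over all features). The matricellular protein Thbs1 gave 0.0456, 0.0609 and 0.0501 against 0.0479, 0.0516 and 0.0508, and lay at -0.05 ± 0.12, or 0.01 under normexp. Its relative Thbs2 gave 0.147, 0.198 and 0.142 against 0.158, 0.202 and 0.185, and lay at 0.17 ± 0.16. Both pairs of groups overlapped. Tnc, tenascin C, was dim, between 0.0230 and 0.0641, and its difference of -0.43 ± 0.39 was -0.06 without o-nitroanisole replicate 2. Postn, periostin, a marker of injury, was too dim on all 6 arrays, with relative signals from 0.00242 to 0.00401.

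Of the small leucine-rich proteoglycans, which bind collagen fibrils, Bgn (biglycan) gave 35.4, 33.9 and 36.2 in corn oil and 28.6, 32.2 and 32.0 in o-nitroanisole. The groups were apart by a small step of -0.19 ± 0.07, or 12.1% (adjusted p = 0.254), and the second probe gave -0.32. Dcn (decorin) gave 8.84, 7.48 and 6.18 against 5.95, 5.67 and 7.50, with overlap and a difference of -0.23 ± 0.17 (adjusted p = 0.510). Lum (lumican) exceeded background on 1 control array and 2 treated arrays, with relative signals from 0.00436 to 0.0280, and was not tested.

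The TGF-beta genes did not move as one. Tgfb1, the ligand most tied to fibrosis, gave 0.182, 0.186 and 0.191 in corn oil and 0.198, 0.183 and 0.178 in o-nitroanisole. The groups overlapped with little spread, and the 95% interval of the difference ran from -0.16 to 0.16. Tgfbi, a secreted adhesion protein induced by TGF-beta, gave 3.27, 2.08 and 3.03 against 1.97, 1.25 and 1.1. All treated rats lay below all controls, though o-nitroanisole replicate 1 and corn oil replicate 2 were close. The difference was -0.98 ± 0.28, or 49.3% lower (adjusted p = 0.165), the second probe gave -1.26, and the Tgfbi to Tgfb1 ratio differed by -0.98 ± 0.29.

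Tgfb2, a second ligand, had the widest spread among the controls, at 0.0804, 0.270 and 0.427, against 0.0957, 0.0675 and 0.0762 in the treated rats. Corn oil replicate 1 lay among the treated rats, and the difference of -1.41 ± 0.61 did not pass (adjusted p = 0.292). It was -2.10 without that array and -0.90 without corn oil replicate 3. Its other tested probes also lay lower, at -1.53 (unadjusted p = 0.0374 by limma) and -0.94 (unadjusted p = 0.00587). The latter was dim, between 0.0193 and 0.0510. Ccn2, connective tissue growth factor, spread widely in the treated rats instead, at 5.74, 3.71 and 1.89 against 3.99, 4.22 and 3.57. One treated rat lay above all controls and one below, and the difference of -0.19 ± 0.40 turned to 0.24 without o-nitroanisole replicate 3.

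Acta2, smooth muscle actin and a marker of myofibroblasts, gave 0.480, 0.490 and 0.448 in corn oil and 0.472, 0.555 and 0.473 in o-nitroanisole. The groups overlapped, with a difference of 0.08 ± 0.09 and a 95% interval from -0.14 to 0.30. Pdgfrb, the platelet-derived growth factor receptor of pericytes and mesangial cells, gave 1.23, 1.38 and 1.44 against 1.56, 1.45 and 1.5. The groups were apart, upward, by 0.16 ± 0.08 (adjusted p = 0.359), with the second probe at 0.06 and the normexp value at 0.04.

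**Figure D3:**
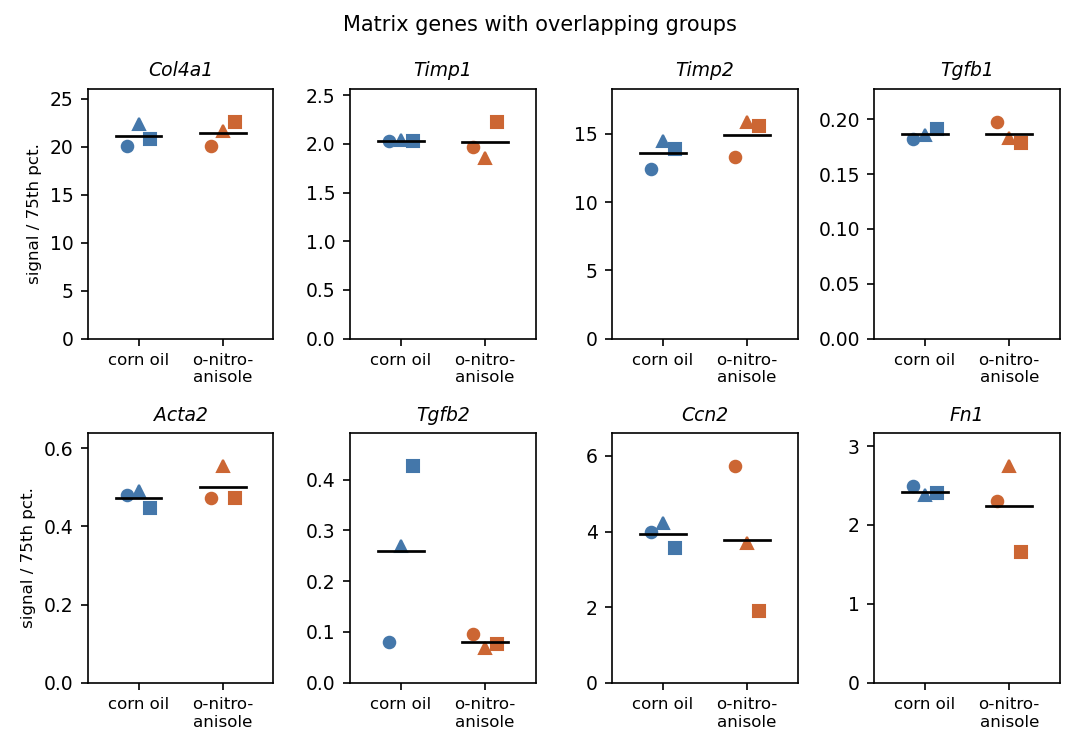
Relative signal (y axis from 0) of 8 matrix genes whose groups overlapped, with symbols and bars as in the plot of the separated genes. Col4a1, Timp1, Timp2, Tgfb1 and Acta2 vary little between rats, whereas Tgfb2 varies among the controls (0.0804 to 0.427) and Ccn2 among the treated rats (1.89 to 5.74).

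Related genes were read from 7 lists made by function. Of 28 elastic fibre and other matrix proteins tested, 7 were lower and 2 higher at an unadjusted p under 0.05, with a median of -0.18. The microfibril proteins Mfap2 and Mfap4 lay at -0.76 ± 0.15 and -0.66 ± 0.18, each with the groups apart. Mfap2 was dim, between 0.0465 and 0.107, and under normexp the differences were -0.35 for Mfap2 and -0.46 for Mfap4. Of 9 other collagens tested, 2 were lower and 0 higher, with a median of -0.22. These were Col9a2 at -0.69 ± 0.15 and Col6a2, a partner of the unmatched Col6a1 and Col6a3, at -0.33 ± 0.12. Read against 7.12% of all features lower and 11.8% higher, the shares lower in these lists were above the background.

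Of 21 other proteases and inhibitors tested, 5 were lower and 2 higher, with a median of -0.02. Against 7.12% of all features lower and 11.8% higher, the share lower was above the background and the share higher was not. The 2 higher were the proteases Mmp24 at 0.59 ± 0.12 and Ctsl at 0.33 ± 0.12, named after their values were seen. Plau, the urokinase protease, gave 11.6, 11.4 and 13.4 in corn oil and 7.72, 7.69 and 7.75 in o-nitroanisole. Timp3, the matrix-bound inhibitor, gave 3.41, 3.71 and 3.70 against 2.58, 2.49 and 2.47. Both separated the groups with little spread, at -0.65 ± 0.08 and -0.52 ± 0.06, and the trend and robust fit called both (at 0.0248 each; 0.0248 to 0.261 over the alternative settings). Timp3 thus lay lower where Timp1 and Timp2 did not; the differences between these inhibitors were not tested. On leaving out 1 array in that fit, Plau was called without corn oil replicate 3 alone and Timp3 in no case. Mmp3, Mmp7, Mmp8, Mmp10 and Adamts4 were too dim on all 6 arrays.

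Of 18 collagen folding and processing genes tested, 1 was lower and 2 higher, with a median of -0.01. Neither share was above that of all features (7.12% lower and 11.8% higher). Bmp1, the procollagen C-proteinase, gave 2.78, 3.17 and 3.20 against 4.23, 5.03 and 4.78, and rose in the trend and robust fit (at an adjusted p of 0.0362; 0.0362 to 0.276 over the alternative settings; lost on leaving out any 1 array). The groups were well apart at 0.62 ± 0.10, but its probes ranged from 0.13 to 0.62. The 1 lower gene was Serpinh1, the collagen chaperone, at -0.41 ± 0.16, named after its value was seen.

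The remaining lists had medians near that of all features, of which 7.12% were lower and 11.8% higher at an unadjusted p under 0.05. Of 10 basement membrane partners, 1 was lower and 3 higher, with a median of 0.03, so the share higher was above the background. The laminin chain Lamb2 lay at 0.26 ± 0.09. The 1 lower gene was also a laminin chain, Lamb3, at -0.64 ± 0.21 with overlapping groups, named after its value was seen. Of 24 TGF-beta pathway genes, 1 was lower and 2 higher, with a median of 0.03. Grem1, a secreted inhibitor of bone morphogenetic proteins, lay at -0.85 ± 0.24, and Bmp7 at 0.24 ± 0.06. Of 13 matrix receptors, 0 were lower and 1 higher, with Itgb5 at 0.20 ± 0.07 and Sdc3 at 0.13 ± 0.07.

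**Figure D4:**
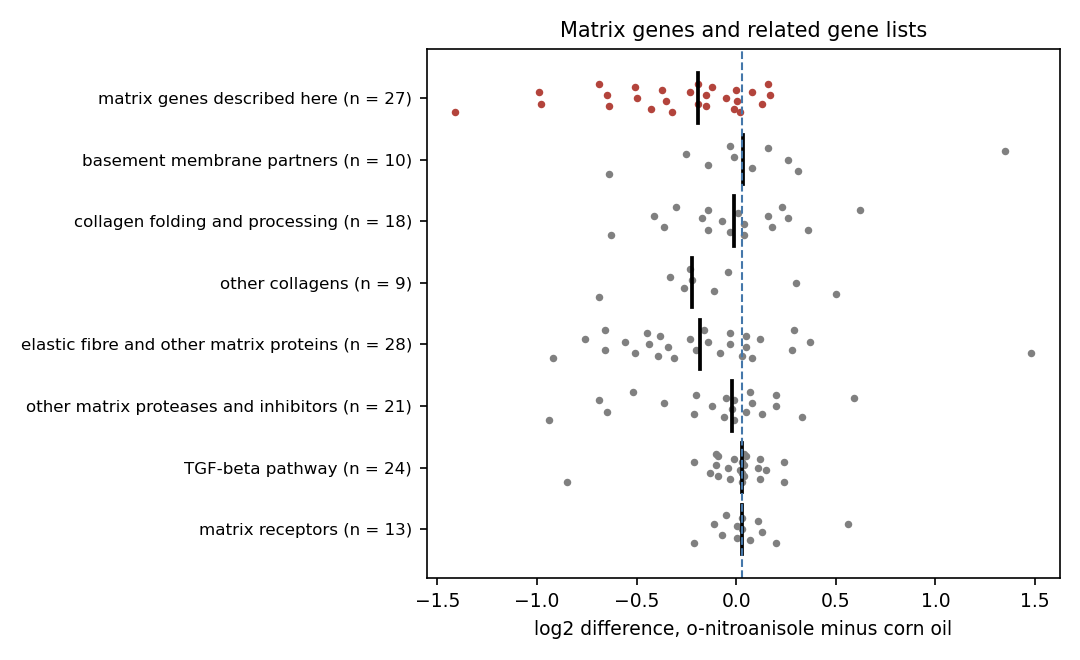
Log2 difference between o-nitroanisole and corn oil (x axis) for each tested gene of the matrix genes described here (red) and of 7 related lists (grey), with the number tested. Black bars are list medians and the dashed line is the median of all features (0.03); the matrix genes, other collagens and elastic fibre lists have medians of -0.19, -0.22 and -0.18, and the other 5 lie between -0.02 and 0.03.

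Markers of other cell types were read beside the matrix genes, as summed relative signals and as medians over each list. A sum follows its brightest genes, so each was also taken without the brightest and without the 2 brightest genes, a choice made after seeing the data. The 4 fibrillar collagens summed to 20.3 to 23.8 in corn oil and 15.0 to 16.7 in o-nitroanisole. Col1a2 made up 63.1% to 66.0% of that sum; the groups were still apart without it, at 6.90 to 8.38 against 5.33 to 6.16, and overlapped without Col1a2 and Col3a1, at 2.87 to 4.24 against 2.55 to 3.03.

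The 14 tested fibroblast markers of 15 had a median difference of 0.01, with 7 below 0. They summed to 34.6 to 37.5 in corn oil and 36.3 to 39.8 in o-nitroanisole, with overlap. Dpep1, which is also a brush-border enzyme of the tubule, and Gsn made up 53.9% to 61.4% of the sum, and without them every treated array lay lower, at 15.4 to 15.5 against 15.8 to 16.9. Gli1 had the largest difference, -0.86 ± 0.40, with overlapping groups, and Fap was not well above background. The fibroblast receptor Pdgfra lay at -0.16 ± 0.11 and the filament protein Vim at 0.09 ± 0.09, both named after their values were seen.

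Vascular smooth muscle and pericyte markers (11 tested of 14; Cnn1 and Lmod1 not well above background) had a median of -0.03. Every treated array had a lower sum than every control, 36.5 to 37.5 against 38.1 to 39.8, and the groups overlapped without Notch3 and Smtn. Actg2 lay at -0.35 ± 0.17. Mesangial markers (8 of 8) had a median of 0.07, with 3 below 0. Endothelial markers (11 of 12) had a median of 0.05 and summed to 66.2 to 81.9 and 82.7 to 87.1. The endothelial groups overlapped without Plvap, and Esam lay at -0.44 ± 0.31, high on corn oil replicate 1 alone. Podocyte markers (8 of 8) had a median of 0.12 and summed to 46.4 to 53.5 and 52.5 to 61.2, with Podxl at 0.39 ± 0.10.

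Red blood cell, neutrophil, collecting duct and proximal tubule markers had higher sums on every treated array. This also held without the 2 brightest genes of each list. For neutrophils only Csf3r and Camp then remained, both dim, with sums of 0.0939 to 0.120 in corn oil and 0.128 to 0.142 in o-nitroanisole. The groups overlapped for Csf3r, at 0.17 ± 0.22, so the separation rested on Camp, at 0.45 ± 0.12. Red blood cell markers (10 of 12) summed to 430 to 500 in corn oil and 670 to 819 in o-nitroanisole, with a median of 0.72 and Ahsp at 1.98 ± 0.36. Neutrophil markers (4 of 8; Elane, Cxcr2 and Ngp not well above background) summed to 0.345 to 0.394 and 0.658 to 0.983, with a median of 0.80 and S100a8 at 1.76 ± 0.27. Collecting duct markers (10 of 10) summed to 177 to 193 and 213 to 235, with a median of 0.33 and Aqp4 at 0.81 ± 0.11, its probes from 0.06 to 0.84.

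Proximal tubule markers (10 of 10) had a median of 0.22, which was 0.09 under quantile scaling and 0.0031 under normexp. They summed to 1858 to 1961 and 1977 to 2041, with Slc5a12 at 0.43 ± 0.15, while the brightest, Kap, lay at -0.31 ± 0.15. Without Kap the sums were 1351 to 1400 and 1534 to 1596, and without Kap and Slc13a3 1001 to 1065 and 1129 to 1193. Medulla and papilla markers (7 of 8) had a median of 0.08, with 2 below 0. Their sums, 474 to 555 and 395 to 428, were 90.8% to 96.1% Umod, a thick limb gene at -0.25 ± 0.07, and the groups overlapped without it. Cryab lay at -0.96 ± 0.39, and at -0.58 without corn oil replicate 1.

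Macrophage and monocyte markers (10 of 12) had a median of -0.17, with 9 below 0, and summed to 96.8 to 98.1 and 77.8 to 99.6. Mrc1 lay at -0.85 ± 0.42 with overlapping groups. Cd14, named after its value was seen, lay higher, at 0.51 ± 0.08 with the groups apart. The trend and robust fit called Cd14 (adjusted p = 0.0444 in that fit), a call lost on leaving out any 1 array. Adipose markers (7 of 9) had a median of 0.05. Their sums, 136 to 185 and 238 to 244, were 97.5% to 98.8% Pck1, which is also a gluconeogenic enzyme of the proximal tubule, and the groups overlapped without it, at 2.67 to 3.74 against 2.82 to 3.05. Adipoq lay at 0.05 ± 0.09 and Fabp4 at -0.97 ± 0.42. Retn had the largest fitted value but was above background on treated arrays alone and rested on o-nitroanisole replicate 3, at 0.255 against 0.0156 and 0.0220 in the other treated rats. The part of these cell type values in the lower matrix transcripts was not tested.

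**Figure D5:**
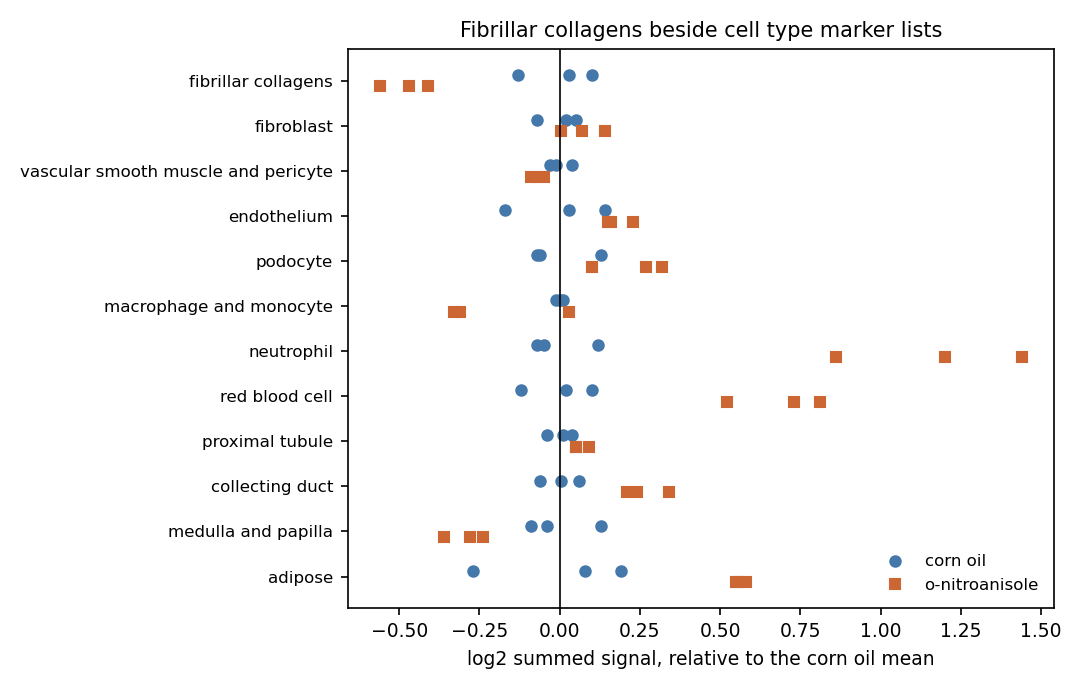
Summed relative signal of the fibrillar collagens and of 11 marker lists, as the log2 ratio to the corn oil mean (x axis); blue circles are the 3 corn oil rats and orange squares the 3 o-nitroanisole rats. The fibrillar collagens of the treated rats lie between -0.56 and -0.41, and the red blood cell list above 0.5. Sums follow their brightest genes, Pck1 in the adipose list and Umod in the medulla and papilla list, and the fibroblast list rests mostly on Dpep1 and Gsn.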

How the data were processed

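Scanner files of 6 one-colour arrays were read; per the file headers they hold spot intensity values, background-subtracted in the processed signal but not scaled across arrays. The software was Agilent Feature Extraction, 10.7 in the submitters' processing notes. The authors' value table, as deposited, is a ratio of processed signal to the array's 75th percentile; its corn oil columns 1, 2 and 3 match the scanner files of replicates 3, 1 and 2 within 1%, which leaves the numbering of the controls open to doubt. It served as an alternative.

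Of 61657 non-control probes, 84 spike-in probes were left out. Accessions were matched without version to a RefSeq table of assembly GRCr8, naming 27460 of 33356 accession-bearing probes; the array design names build rn4, so no probe coordinates are given. Processed signals were scaled to each array's 75th percentile, taken to log2 and tested with limma 3.58.1 (R 4.3.3; lmFit, eBayes defaults, Benjamini-Hochberg over all features). Outlier spots were missing values and no spot was saturated. Probes well above background on every array of 1 group or both were tested (41096), and the brightest represented its gene. The labels call the arrays of a group biological replicates. The script was tested on simulated data.

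Members, lists and tests were chosen with earlier results of these data known. The rule for named genes took all members; of each related list, genes past 0.05 by the default or else the trend and robust fit, otherwise the 2 largest differences with separate groups; and of each marker list the largest difference. Some genes that the rule took are not reported here. Same-numbered arrays did not pair (correlations of deviations 0.0911, 0.0584 and 0.0257, under 0.1). Plots were drawn with matplotlib 3.10.9 in Python 3.11.15, and tables made with pandas 2.3.3.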

Additional observations from a re-analysis of the deposited data

How the results depend on the processing

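The count of 0 matrix genes past the threshold became 4 with the trend and robust fit and 1 (Col1a2, at -0.65) with normexp background correction, where 0.126% of all features were lower and 0.151% higher; it was 0 under the other settings, and 0 in each trend and robust fit without 1 array, which was added after seeing the data. With the replicate block 0 passed the threshold and 9 were lower at an unadjusted p under 0.05; the numbers are not shown to pair rats. Leaving out 1 array gave 7 to 11 genes lower at that p, 8 to 12 with separate groups and a median of -0.22 to -0.18. Groups separate more easily with 1 array fewer. The shares of all features lower or separate are not given for these fits or for the replicate block. These counts are therefore only a description and do not show that the result is stable. Quantile scaling moved the median to -0.27, with 9 genes lower and 0 higher, where 7.95% of features were lower and 8.79% higher. Of the 27 genes, 20 kept their direction in all 18 alternative settings. The other 7 lay near 0 or rested on 1 array. The log2 difference of Col4a1 turned to -0.07 (quantile), -0.08 (normexp) and -0.10 (mean of probes), with -0.02 to 0.07 on leaving out 1 array (-0.01 without corn oil replicate 1); that of Col8a1 to -0.00043 (quantile), with -0.10 to 0.18. The log2 difference of Timp1 turned to 0.01 (median scaling) and 0.12 (normexp), with -0.08 to 0.04 (0.0021 without o-nitroanisole replicate 1), and that of Tgfb1 to 0.01 (quantile) and 0.02 (median), with -0.05 to 0.03. Fn1 turned to 0.04 and Thbs1 to 0.01 (normexp), with -0.31 to 0.05 and -0.14 to 0.07, and Ccn2 ranged from -0.56 to 0.24. The cause was not tested. The normexp run used the median signal. Naming by a symbol column was not run, since the files as read give none, nor was the slide block, since each slide held 1 group. Probes near background limit Col8a1, Thbs1 and Tnc.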
